A study of Mus musculus with 17 samples.

Results

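The genes described here are dopamine receptors and the receptors and peptide that tell the main classes of striatal projection neuron apart: Drd1, Drd2, Drd3, Drd4, Drd5, Adora2a, Gpr6, Gpr52 and Tac1. They were chosen by name, as 9 genes, and read from RNA-seq counts of mouse brain. Rows were found for 8 of the 9 among 45147 features, and all 8 were among the 19136 features tested. Gpr52 was not analysed here, since no gene of the annotation used carries that symbol. The 6 transgene libraries came from mice that overexpress HAR1A, a long noncoding RNA, and the 11 control libraries from normal mice. Both groups are of the C57BL/6 strain background, per the labels. The sources used here give no promoter for the transgene, brain part, age or sex. They do not say that libraries are separate animals, and a p-value here covers only library-to-library spread, which may be technical. The level of HAR1A itself was not analysed here and does not check the labels. Most control titles carry a letter N, and controls 4, 6 and 8 lack it, while transgene 5 has it and the other transgene libraries do not; its meaning is not given, and groups follow the treatment label. Libraries are numbered within their group in order of deposition.

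Dopamine acts through receptors of 2 classes. The D1 class (Drd1 and Drd5) couples to stimulatory G proteins and raises cyclic AMP, whereas the D2 class (Drd2, Drd3 and Drd4) couples to inhibitory G proteins and lowers it. In the striatum, projection neurons of the direct pathway carry Drd1 together with the peptide precursor gene Tac1. Those of the indirect pathway carry Drd2 together with the adenosine receptor gene Adora2a and the orphan receptor genes Gpr6 and Gpr52. Drd2 is also made by midbrain dopamine neurons and by pituitary cells, and Tac1 by many neurons outside the striatum.

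Assigned counts ranged from 17067407 to 22642441 per library. All 6 transgene libraries and controls 7, 8 and 11 were run on lane 4 of a flow cell. Among the other controls, 6 were run on lane 8, 1 on lane 2 and 1 on another flow cell, so each of the 8 genes is also given within lane 4. Marker genes of brain regions differed between the groups. Of 10 telencephalon genes tested, 10 were higher in the transgene libraries, with a summed level of 209.0 to 414.0 CPM (the count scaled to library size with TMM factors) against 2.80 to 150.9 CPM in controls. All 13 genes of the Hox list, a mark of the hindbrain and cord, were lower, with a summed level of 0.0464 to 0.634 CPM against 16.2 to 311.4 CPM; Hoxa2, Hoxb2, Hoxb6, Hoxd3 and Hoxd4 had no count in any transgene library. All 6 cerebellar granule cell genes were lower, with sums of 46.9 to 364.9 CPM against 45.9 to 1896 CPM. These counts are over all libraries. Within lane 4, 7 of the 10 telencephalon genes were called higher, all 11 Hox genes tested lower, and 3 of the 6 granule cell genes lower. The part of these differences in the results below was not tested. In such bulk samples, fewer cells of a type and less RNA per cell cannot be told apart. Control 7 stood apart from the other controls in its pituitary genes, which summed to 1129 CPM against 0.582 to 2.90 CPM, and in the lowest granule cell sum of any library. Transgene 3 had the highest granule cell sum of its group.

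Of the 8 genes tested, 7 were higher in the transgene libraries and 0 lower, at an edgeR quasi-likelihood adjusted p under 0.05 across all libraries. The background was high: 47.4% of all features passed the same test, 23% as higher and 24.4% as lower. With libraries scaled by size alone the calls split into 3510 higher and 6361 lower, against 4410 and 4668 with TMM, and the median of log2 fold changes over all features moved from -0.05 to -0.16. The median log2 fold change of the 8 genes was 2.05. In 4 of the 8, Drd1, Drd2, Adora2a and Gpr6, every transgene library was above every control, as it was for 9.46% of all features. Within lane 4, 5 of the 8 were higher (Drd1, Drd2, Adora2a, Gpr6 and Tac1), against a background of 25.6% called (13.6% higher and 12% lower), with a median of 1.79 for the 8 genes. The same 4 genes as above had no overlap within lane 4, where 14.7% of features had every transgene library on top. The filter on low counts asks for 0.498 CPM before TMM scaling. Of the 3 controls of lane 4, 0 reached it for Drd1, 1 for Drd3, and 2 each for Drd4 and Gpr6. Within lane 4 these genes were thus tested through their transgene libraries, so their calls and lack of overlap there depend on that entry. Leaving out control 7 and transgene 3 together left 7 of the 8 called. Without transgene 5 and controls 4, 6 and 8, whose titles differ from most of their group, 6 of the 8 were called, and Drd5 was not, at 0.44 ± 0.26 (SE; edgeR adjusted p = 0.185). That last alternative was chosen after seeing the data.

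**Figure D1:**
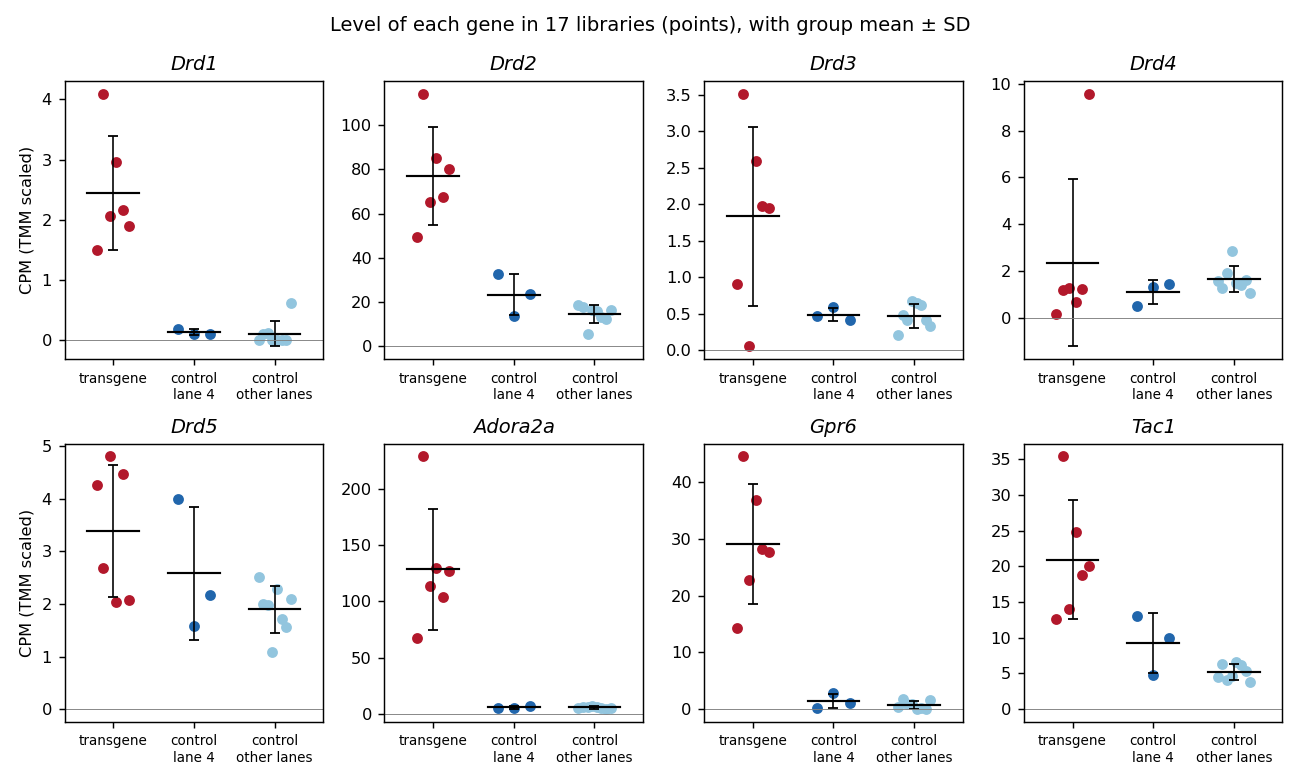
Level of each of the 8 genes in TMM-scaled CPM (linear axis) in 17 libraries, each a point, for the transgene group, the 3 controls of lane 4 and the 8 controls of other lanes; the bar is the mean and the whiskers the SD. The transgene points of Drd1, Drd2, Adora2a and Gpr6 lie above all control points, and the Drd4 mean of the transgene group, 2.35 CPM, lies above 5 of its 6 points, with transgene 6 at 9.58 CPM.

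Drd1 encodes the main D1-class receptor of direct pathway neurons (ENSMUSG00000021478.6, chr13:54051183-54055705, minus strand, mm10). Its level in the transgene libraries was lowest at 1.49 CPM, had a median of 2.11 CPM and was highest at 4.10 CPM. Controls had a median of 0.0952 CPM and a highest value of 0.617 CPM, in control 10, and 5 of the 11 controls had no count. The 3 controls of lane 4 stood at 0.186 CPM (control 7), 0.0983 CPM (control 8) and 0.103 CPM (control 11). The groups did not overlap, and the means were 2.44 ± 0.94 CPM (SD, n = 6) and 0.111 ± 0.180 CPM (SD, n = 11). The log2 fold change was 4.38 ± 0.53 (SE; edgeR adjusted p = 2.74e-06) over all libraries and 4.15 ± 0.47 (edgeR adjusted p = 0.000199) within lane 4. The control side rests on 25 counts, 13 of them in control 10, and without that library the log2 fold change was 5.23 (edgeR adjusted p = 3.37e-07). Of the controls only 1 passed the level that the filter on low counts asks for, 0.498 CPM, so Drd1 was tested through its transgene libraries.

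The Drd1 level is not that of the whole gene. The authors' table has 2 rows for Drd1, and all 318 counts lie on 1 of them, the transcript ENSMUST00000221470, while the other row is at 0 in every library. Reads that fell on several features were left unassigned, and 3526 of that transcript's 3576 exon bases also lie in the other row. It has 50 bases of its own, 47 of them at its 5′ end (chr13:54055659-54055705) and 3 at the 3′ end. The Drd1 values therefore rest on reads that could be given to this transcript alone, by a counting rule that the sources used here do not give.

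Drd5 encodes the other D1-class receptor, which is found more in hippocampus, cortex and hypothalamus than in striatal projection neurons (ENSMUSG00000039358.3, chr5:38319367-38322518, plus strand, a single exon). Transgene libraries ranged from 2.04 CPM (transgene 4) over a median of 3.47 CPM to 4.81 CPM (transgene 3). Controls ranged from 1.08 CPM (control 4) over a median of 1.999 CPM to 4.00 CPM (control 7). The groups overlapped, and transgene 1, 3 and 5 were above all controls. The means were 3.39 ± 1.26 CPM (SD, n = 6) and 2.09 ± 0.75 CPM (SD, n = 11), and the fitted log2 difference was 0.70 ± 0.24 (SE; edgeR adjusted p = 0.0226). Within lane 4 it was 0.37 ± 0.38 (edgeR adjusted p = 0.520), with flow cell and lane as a factor 0.39 ± 0.32 (edgeR adjusted p = 0.400), and without transgene 3 it was 0.60 ± 0.25 (edgeR adjusted p = 0.0581). Of its 3152 exon bases, 1621 lie in no other row matched to the annotation, because Gm26560 overlaps it on the opposite strand. Reads of the pair cannot be told apart without a stated strand setting.

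Among the D2 class, Drd2 encodes the receptor of indirect pathway neurons and the autoreceptor of dopamine neurons (ENSMUSG00000032259.8, chr9:49340627-49408177, plus strand, 8 exons in the deposited transcript). Transgene libraries ranged from 49.4 CPM (transgene 1) over a median of 73.7 CPM to 114.2 CPM (transgene 2). Controls ranged from 5.82 CPM (control 3) over a median of 16.4 CPM to 32.6 CPM (control 7), and the other lane 4 controls stood at 13.9 CPM (control 8) and 23.6 CPM (control 11). No control reached the lowest transgene library. The mean was 76.9 ± 22.2 CPM (SD, n = 6) against 17.1 ± 6.78 CPM (SD, n = 11). Drd2 rose by 2.17 ± 0.24 on the log2 scale (SE; edgeR adjusted p = 9.80e-07). Within lane 4 it was 1.70 ± 0.30 (edgeR adjusted p = 0.00247). Control 7, the highest control, is the library with the pituitary genes, and without it the log2 fold change was 2.33 ± 0.21 over all libraries and 2.03 ± 0.32 within lane 4 (edgeR adjusted p = 1.53e-07 and 0.00183).

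Drd3 encodes a D2-class receptor known from the islands of Calleja and the ventral striatum (ENSMUSG00000022705.5, chr16:43754026-43822932, plus strand). Its transgene libraries were at 0.904, 3.51, 0.0528, 2.596, 1.97 and 1.95 CPM in order of their numbers. The value of transgene 3 is 1 count, below every control, whereas the other 5 libraries were above every control. Controls ranged from 0.209 CPM over a median of 0.465 CPM to 0.667 CPM. The means were 1.83 ± 1.22 CPM (SD, n = 6) and 0.476 ± 0.142 CPM (SD, n = 11), and the fitted log2 difference was 1.93 ± 0.41 (SE; edgeR adjusted p = 0.000738). The limma-voom test gave 1.33 ± 0.64 (limma adjusted p = 0.0956). Within lane 4 the log2 fold change was 1.88 ± 0.78 (edgeR adjusted p = 0.103), and 2.13 ± 0.44 without transgene 3 (edgeR adjusted p = 0.00795).

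Drd4, a D2-class receptor known from frontal cortex, retina and pineal gland, was the gene of the set that did not pass the test (ENSMUSG00000025496.5, chr7:141292006-141296464, plus strand). Transgene libraries were at 0.160, 1.17, 1.27, 0.695, 1.22 and 9.58 CPM in order of their numbers. Transgene 6 was above every other library of either group, and transgene 1 below every other. Controls ranged from 0.512 CPM over a median of 1.44 CPM to 2.87 CPM. The log2 fold change was 0.63 ± 0.53 (SE; edgeR adjusted p = 0.350) over all libraries and 1.07 ± 0.99 (edgeR adjusted p = 0.476) within lane 4. Without transgene 6 it was -0.69 ± 0.36 (edgeR adjusted p = 0.136) and -0.29 ± 0.55 (edgeR adjusted p = 0.747). Of 9 pineal genes, Crx and Gngt1 had no count in any library, and the pineal sum of transgene 6 was 6.68 CPM within a range of 5.37 to 18.5 CPM for its group. The cortical excitatory neuron sum was highest in transgene 6, at 3797 CPM within a range of 1983 to 3797 CPM, and its part in the Drd4 value was not tested.

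Adora2a and Gpr6 are genes of indirect pathway neurons, and the receptors they encode both couple to stimulatory G proteins. Adora2a (ENSMUSG00000020178.6, chr10:75316877-75334784, plus strand) ranged in the transgene libraries from 67.6 CPM (transgene 1) over a median of 120.3 CPM to 228.6 CPM (transgene 2). Controls spanned only 4.33 to 7.29 CPM with a median of 5.60 CPM. The groups were far apart, and the controls of lane 4, at 4.88, 5.60 and 7.02 CPM, lay within the range of the rest. The means were 128.2 ± 54.0 CPM (SD, n = 6) and 5.81 ± 0.93 CPM (SD, n = 11). The log2 fold change was 4.46 ± 0.18 (SE; edgeR adjusted p = 2.06e-11) over all libraries and 4.44 ± 0.38 (edgeR adjusted p = 6.15e-05) within lane 4.

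Gpr6 (ENSMUSG00000046922.7, chr10:41069977-41072285, minus strand) lies on the same chromosome as Adora2a, on the opposite strand. Transgene libraries ranged from 14.4 CPM (transgene 1) over a median of 27.9 CPM to 44.6 CPM (transgene 2). Controls ranged from no count in control 9 over a median of 0.815 CPM to 2.85 CPM in control 8, and the other lane 4 controls were at 0.279 CPM (control 7) and 1.14 CPM (control 11). The means were 29.1 ± 10.6 CPM (SD, n = 6) and 0.889 ± 0.871 CPM (SD, n = 11), again without overlap. The log2 fold change was 5.03 ± 0.49 (SE; edgeR adjusted p = 3.56e-07) and 4.34 ± 0.59 within lane 4 (edgeR adjusted p = 0.000556). Without control 8 the lane 4 value was 5.37 ± 0.60 (edgeR adjusted p = 0.00028).

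Tac1 encodes the precursor of substance P and neurokinin A, peptides that direct pathway neurons release (ENSMUSG00000061762.12, chr6:7554879-7565834, plus strand). Transgene libraries ranged from 12.7 CPM (transgene 1) over a median of 19.4 CPM to 35.4 CPM (transgene 2). Controls ranged from 3.75 CPM over a median of 5.39 CPM to 13.1 CPM in control 7. Control 7 alone reached into the transgene range, and the other lane 4 controls were at 4.72 CPM (control 8) and 9.91 CPM (control 11). The means were 20.96 ± 8.33 CPM (SD, n = 6) and 6.27 ± 2.84 CPM (SD, n = 11), and the fitted log2 difference was 1.74 ± 0.25 (SE; edgeR adjusted p = 2.15e-05). Within lane 4 it was 1.16 ± 0.37 (edgeR adjusted p = 0.0427), a call that was lost when transgene 2, 4, 5 or 6 or control 8 or 11 was left out, with values of 0.85 to 1.21 (edgeR adjusted p = 0.0635 to 0.116). As with Drd1, all 3918 counts of Tac1 lie on 1 of its 3 rows, ENSMUST00000185187, which has 196 of its 1230 exon bases to itself, 195 of them at the 5′ end (chr6:7554879-7555073).

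**Figure D2:**
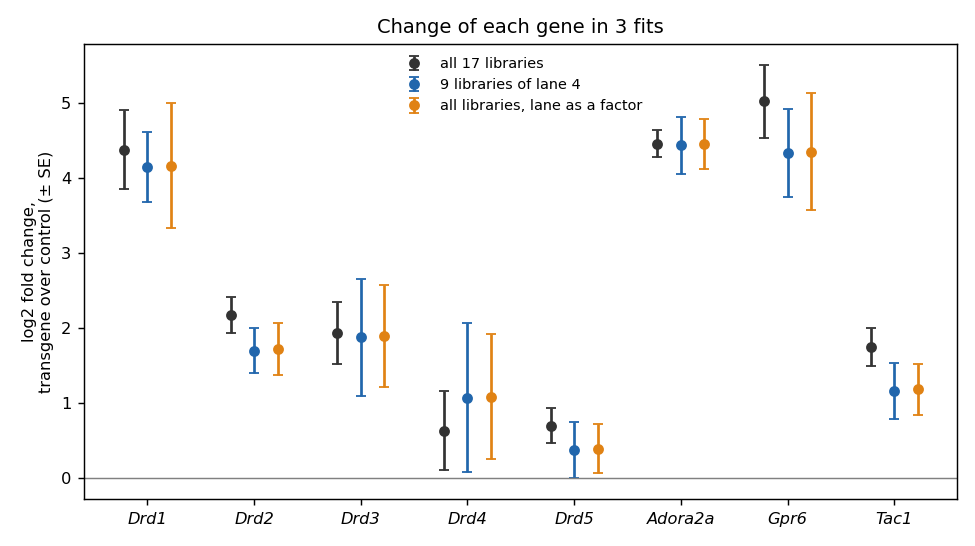
Log2 fold change (transgene over control) of each of the 8 genes with its SE, over all 17 libraries, within the 9 libraries of lane 4 and over all libraries with flow cell and lane as a factor. Adora2a stands at 4.46, 4.44 and 4.46 in the 3 fits, whereas Drd5 moves from 0.70 to 0.37 and 0.39.

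Start regions are shown for Drd2 and Gpr6, which rose without overlap of the groups, and for Drd4, which did not pass the test. Gpr6 is marked for another motif, so the marks can be compared only between Drd2 and Drd4. Each stretch was taken from the RefSeq promoter table (GRCm38.p6) and ends before the start of the gene in both RefSeq and GENCODE. Capitals mark the GC box, GGGCGG or CCGCCC, in Drd2 (chr9:49340153-49340402, plus strand) and Drd4 (chr7:141291768-141292005, plus strand), and the cyclic AMP response element core, TGACGT or ACGTCA, in Gpr6 (chr10:41072291-41072540, minus strand).
Drd2: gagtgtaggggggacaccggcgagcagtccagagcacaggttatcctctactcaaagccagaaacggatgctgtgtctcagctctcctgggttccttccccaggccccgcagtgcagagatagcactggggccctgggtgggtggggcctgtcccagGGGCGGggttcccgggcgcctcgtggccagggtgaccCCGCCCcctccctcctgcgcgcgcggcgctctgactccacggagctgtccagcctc
Drd4: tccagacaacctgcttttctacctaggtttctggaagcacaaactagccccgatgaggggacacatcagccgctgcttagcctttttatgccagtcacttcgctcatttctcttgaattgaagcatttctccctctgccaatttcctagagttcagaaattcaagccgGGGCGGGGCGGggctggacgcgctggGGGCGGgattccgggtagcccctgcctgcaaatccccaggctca
Gpr6: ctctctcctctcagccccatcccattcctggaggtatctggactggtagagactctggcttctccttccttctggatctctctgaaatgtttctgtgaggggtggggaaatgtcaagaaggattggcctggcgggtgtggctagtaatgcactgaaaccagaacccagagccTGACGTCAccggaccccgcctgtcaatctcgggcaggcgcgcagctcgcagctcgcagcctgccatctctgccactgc

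The Drd2 stretch holds the GC box 2 times and that of Drd4 3 times, with 2 of the 3 overlapping. Drd1 also rose without overlap of the groups. Its stretch, cut in the same way (chr13:54055706-54055908, minus strand), holds no GC box and is not shown. In Gpr6 the core and its reverse complement overlap to form 1 palindrome of 8 bases. Over the full RefSeq windows, from 250 bases before to 50 after the start, a GC box on either strand was present in those of Drd1, Drd2, Drd4, Drd5 and Tac1, and 38.2% of 27025 genes had 1 or more. The core was found for Gpr6 and for none of the other 6 genes with an entry, against 8.37% of all genes. Letters TATAAA or TTTATA were in none of these windows, against 15.7% of all genes. GC content was 70.3% for Drd2 and for Drd5, 65.7% for the first window of Drd1, 58.7% for Gpr6, 58.0% for Drd4, 54.0% for Tac1 and 42.0% for Drd3, and the median over all windows was 52.7%. GC boxes were thus present in the windows of Drd4 and of some genes that passed the test. They were absent from those of Gpr6 and Drd3, which also passed.

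Levels can be compared between genes only where a gene has a single row that shares no exon base with another. Among rows matched to the annotation, this held for Drd2, Drd3, Drd4, Adora2a and Gpr6. Overlap with the other deposited rows was not checked, here or for the unshared bases given above. Per kilobase of exon, the level in the transgene libraries was 49.4 ± 20.8 CPM per kb (SD, n = 6) for Adora2a, 30.2 ± 8.70 for Drd2, 16.3 ± 5.93 for Gpr6, 1.26 ± 0.84 for Drd3 and 0.839 ± 1.27 for Drd4. The means of Adora2a and Drd2, and those of Drd3 and Drd4, differed by less than the larger SD of the pair. That SD is a spread between libraries, while both genes of a pair are read in the same libraries. Within the transgene libraries the log2 ratio of Drd2 to Adora2a counts (0.5 added) was -0.69 ± 0.19 (SD, n = 6) and at most -0.45. Their exon lengths are 2547 and 2596 bases, so Adora2a was above Drd2 per kilobase in every transgene library. In controls (n = 11) the level per kilobase was 6.70 ± 2.66 CPM per kb for Drd2, 2.24 ± 0.36 for Adora2a, 0.535 ± 0.207 for Drd4, 0.498 ± 0.487 for Gpr6 and 0.327 ± 0.0976 for Drd3. Drd2 thus came first in controls and second, after Adora2a, in the transgene libraries. In controls, Drd4 and Gpr6, and Gpr6 and Drd3, differed by less than the spread of Gpr6.

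Ratios within a library need no scaling between libraries, and 8 were tested, with p-values adjusted over the 8. They are log2 ratios of counts with 0.5 added. The ratio of Drd2 to Adora2a was lower in every transgene library than in any control. It was -0.69 ± 0.19 (SD, n = 6) in the transgene libraries and 1.46 ± 0.65 (SD, n = 11) in controls, a difference of -2.15 (exact two-sided permutation test, p = 8.08e-05, the smallest that 12376 splits allow; adjusted p = 0.000323). Within lane 4 the difference was -2.62 (exact permutation, adjusted p = 0.0238; the smallest raw p that 84 splits allow is 0.0119). Control 3, which has the lowest Drd2 level, came nearest to the transgene libraries, at -0.01. Adora2a also rose relative to Ppp1r1b, which encodes a phosphatase inhibitor common to both classes of projection neuron. That ratio was -2.76 ± 0.31 against -5.20 ± 0.64, a difference of 2.45 without overlap (exact permutation p = 8.08e-05, adjusted p = 0.000323), and within lane 4 the difference was 1.94 (exact permutation, adjusted p = 0.0238).

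For Drd2 and Ppp1r1b no difference passed the test. Their log2 ratio was -3.45 ± 0.30 against -3.75 ± 1.13, a difference of 0.30 (exact permutation, adjusted p = 0.542), and -0.67 within lane 4 (exact permutation, adjusted p = 0.422). The level of Ppp1r1b was 857.5 ± 297.5 CPM (SD, n = 6) against 231.0 ± 88.4 CPM (SD, n = 11), a rise of 1.89 ± 0.26 on the log2 scale (SE; edgeR adjusted p = 1.21e-05). Among controls Ppp1r1b was highest in control 4, at 380.5 CPM, and lowest in control 7, at 74.4 CPM. The sum of 7 Purkinje cell genes had the same ends, 3742 and 195.1 CPM, though the order in between differed. In transgene libraries that sum was 253.1 to 860.4 CPM. The part of cells other than projection neurons in the Ppp1r1b level, and so in its ratios, was not tested. For Gpr6 and Adora2a the difference of the log2 ratios was 1.43 (exact permutation, adjusted p = 0.125), 0.40 within lane 4, and 1.69 without control 8 (exact permutation, adjusted p = 0.0481). Controls had 0 to 58 Gpr6 counts, so their ratios, at -3.56 ± 1.95, rest in part on the number added, whereas the transgene libraries, at -2.13 ± 0.23, had 270 counts or more.

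Ratios with Drd1 in them rest on few control counts. Drd1 to Drd2 was -4.99 ± 0.21 in the transgene libraries and -7.76 ± 1.70 in controls, a difference of 2.77 (exact permutation p = 0.00339, adjusted p = 0.00543), which was 1.62 with 2 added to each count and 2.22 within lane 4 (exact permutation, adjusted p = 0.00827 and 0.0238). Control 10, at -4.69, was above every transgene library. Tac1 to Drd1 was lower by 3.25 in the transgene libraries, at 3.08 ± 0.20 against 6.32 ± 1.71 (exact permutation p = 0.00113, adjusted p = 0.00302), by 2.76 within lane 4 and by 2.10 with 2 added. Drd1 to Ppp1r1b differed by 3.07 (exact permutation, adjusted p = 0.00543), by 1.92 with 2 added and by 1.54 within lane 4 (exact permutation, adjusted p = 0.0571). Drd1 to Adora2a had a difference of 0.62 (exact permutation, adjusted p = 0.433), which became -0.40 within lane 4 and -0.52 with 2 added, so no direction is given for it. In the transgene libraries alone, where Drd1 had 28 counts or more, the ratio of Drd1 to Drd2 spanned only -5.38 to -4.79.

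**Figure D3:**
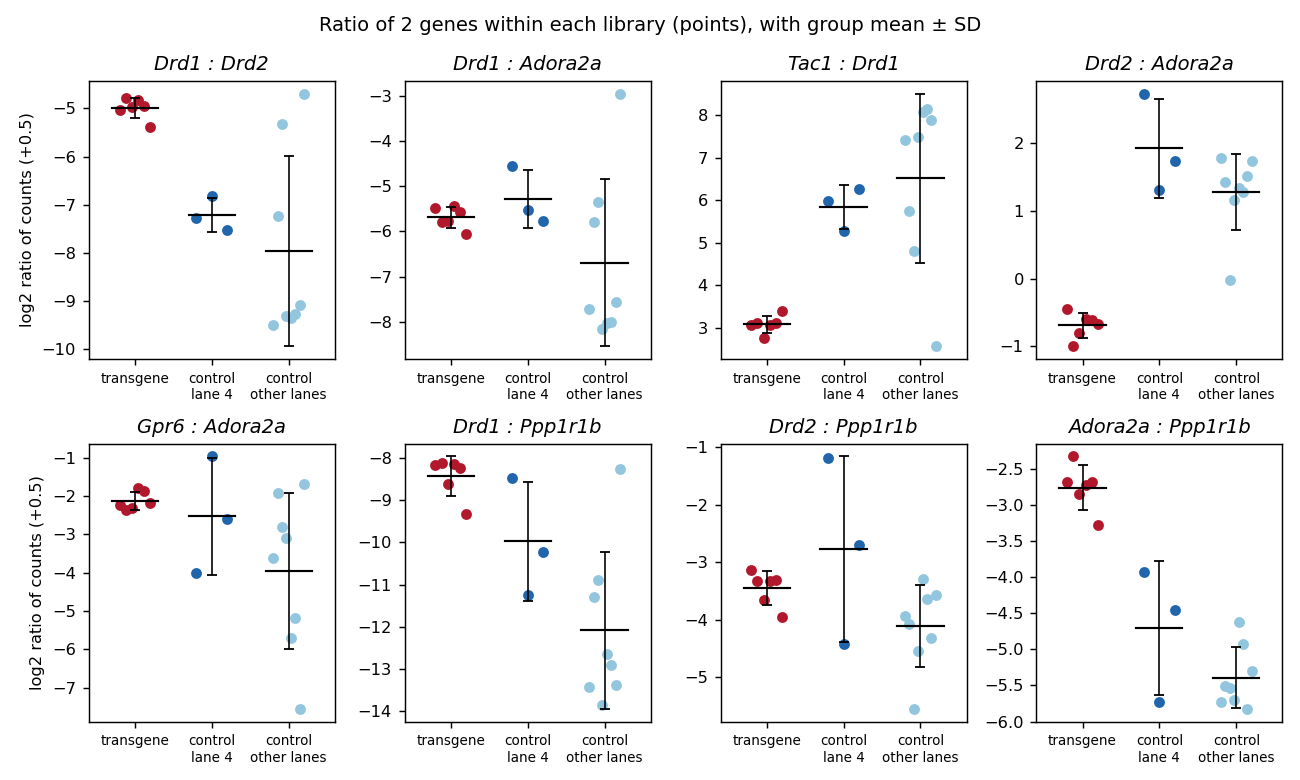
Log2 ratio of counts (0.5 added) of 8 gene pairs in each of 17 libraries, with group mean and SD, for the transgene libraries, the 3 controls of lane 4 and the other controls. The transgene points lie below all controls for Drd2 to Adora2a and above all controls for Adora2a to Ppp1r1b. In the panels with Drd1, the position of the 5 controls without a Drd1 count is set by the 0.5 that was added.

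Within the transgene group, transgene 2 was highest for 6 of the 8 genes and transgene 1 lowest for 6 of the 8, and the exceptions were Drd4 and Drd5, and Drd3 and Drd5. The summed level of 16 shared projection neuron genes followed the same order at its ends, with 1946 CPM in transgene 1 and 4391 CPM in transgene 2. The dopamine transporter gene Slc6a3, a marker of midbrain dopamine neurons, stood at 29.9 CPM in transgene 1 against a median of 1.91 CPM for its group, so the library with the lowest Drd2 had the highest Slc6a3. Among controls, Adora2a varied little, whereas Gpr6 varied from no count to 2.85 CPM. The 5 controls with a telencephalon sum of 54.6 to 150.9 CPM (controls 2, 3, 8, 10 and 11) had Gpr6 at 0.815 to 2.85 CPM. In the other 6, with sums of 2.80 to 9.50 CPM, Gpr6 was at 0 to 0.821 CPM, so both sets of controls remained far below the lowest transgene library.

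**Figure D4:**
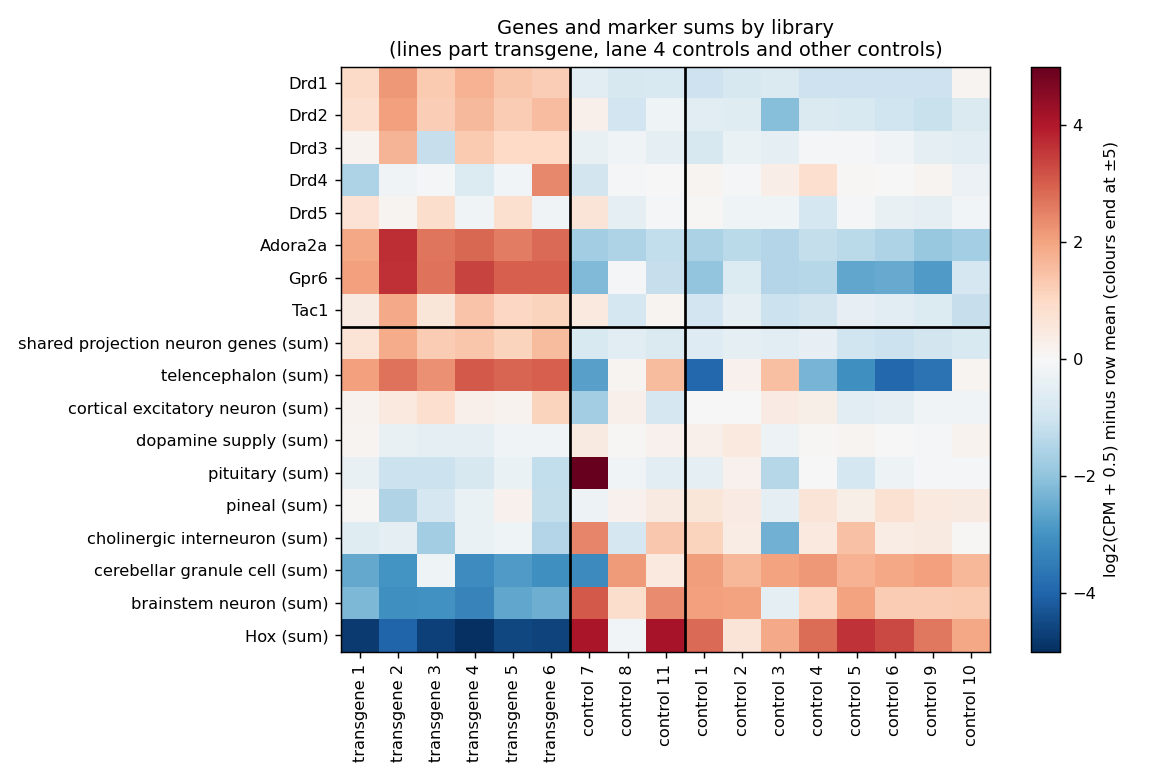
Log2(CPM + 0.5) of each gene and of the summed marker lists, minus the row's mean over 17 libraries (colour scale ends at 5 above and below), in columns for each library grouped as transgene, controls of lane 4 and other controls. Adora2a and Gpr6 are high in all 6 transgene columns, Drd4 only in transgene 6 among them, and the pituitary sum is high in control 7, at 1129 CPM.

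Genes that mark the same neurons are given as counts of calls beside the 47.4% background. Of 6 direct pathway partners, 4 were higher and 1 lower, and the median of their log2 fold changes was 1.78. Chrm4, an inhibitory muscarinic receptor gene, changed by 2.91 ± 0.48 (SE; edgeR adjusted p = 6.91e-05), and Pdyn, the dynorphin precursor gene, by 2.42 ± 0.25 (edgeR adjusted p = 6.18e-07). The solute carrier gene Slc35d3 changed by 1.81 ± 0.29 (edgeR adjusted p = 4.45e-05), with 1.17 ± 0.40 within lane 4 (edgeR adjusted p = 0.0507). Ebf1, a transcription factor gene of direct pathway neurons that many other cells also use, went the other way, with 5.54 ± 1.27 CPM (SD, n = 6) against 35.1 ± 7.06 CPM (SD, n = 11) and a log2 difference of -2.67 ± 0.16 (edgeR adjusted p = 6.83e-09). Within lane 4, 2 of the 6 were higher and 1 lower.

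Of 6 indirect pathway partners, 5 were higher and 1, Ptprm, lower, with a median of 1.13, and within lane 4, 2 were higher and 0 lower. Sp9, a transcription factor gene needed for indirect pathway neurons, changed by 3.07 ± 0.70 (SE; edgeR adjusted p = 0.00133) with 2.06 ± 0.79 within lane 4 (edgeR adjusted p = 0.0789). Penk, the enkephalin precursor gene, changed by 0.85 ± 0.18 (edgeR adjusted p = 0.000745), with 319.3 ± 104.0 CPM (SD, n = 6) against 176.6 ± 41.7 CPM (SD, n = 11), and 0.61 ± 0.28 within lane 4 (edgeR adjusted p = 0.134). Gucy1a1, a subunit gene of the nitric oxide receptor, changed by 1.01 ± 0.17 (edgeR adjusted p = 0.000112), and Upb1, an enzyme gene of pyrimidine breakdown, by 1.25 ± 0.30 (edgeR adjusted p = 0.0019). Within lane 4, Gucy1a1 was at 0.90 ± 0.17 (edgeR adjusted p = 0.00323), while Upb1, at 0.64 ± 0.435, was not called (edgeR adjusted p = 0.316).

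All 16 shared projection neuron genes were higher over all libraries, and 15 of 16 within lane 4, with median log2 fold changes of 1.902 and 1.996. Lists of other cell types also moved: of 10 cortical excitatory neuron genes, 8 were higher and 0 lower in both comparisons, with medians of 2.09 and 2.26 and sums of 1983 to 3797 CPM against 528.3 to 2328 CPM. Of 6 astrocyte genes, 4 were lower and 0 higher, with sums of 1540 to 1802 CPM against 2647 to 3264 CPM, and of 6 oligodendrocyte genes, 5 were lower and 1 higher, with sums of 1034 to 2317 CPM against 1262 to 5115 CPM. The part of these shifts in the levels of the projection neuron genes was not tested. Gng7, a G protein subunit gene that links Drd1 and Adora2a receptors to adenylyl cyclase, changed by 4.79 ± 0.32 (SE; edgeR adjusted p = 1.3e-08). The transcription factor genes Rxrg and Bcl11b changed by 3.37 ± 0.30 and 3.12 ± 0.36 (edgeR adjusted p = 1.97e-07 and 1.7e-06). Gng7, Rxrg and Bcl11b have several deposited rows, and Gng7 overlaps another annotated gene, so these values cover only parts of each gene.

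**Figure D5:**
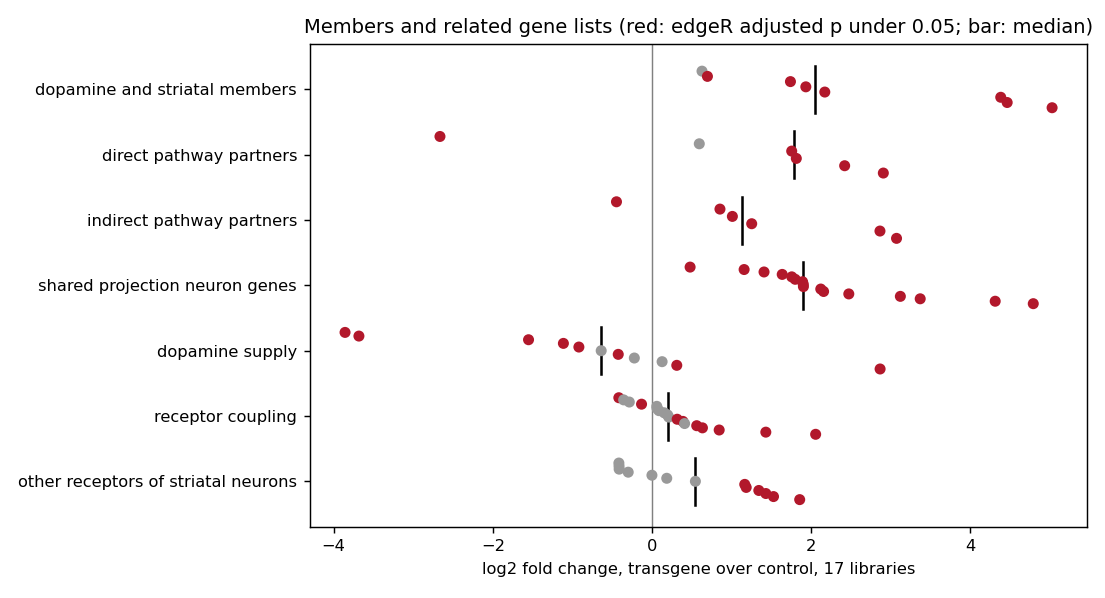
Log2 fold change (transgene over control, 17 libraries) of each tested gene of the set and of 6 related lists, each a point, red where the edgeR adjusted p is under 0.05, with the list's median as a bar. All 16 shared projection neuron genes are red and above 0, whereas the dopamine supply genes have a median of -0.64.

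The dopamine supply list holds enzymes and transporters of dopamine and noradrenaline and transcription factors of dopamine neurons. Of its 11 genes tested, 2 were higher and 6 lower, with a median of -0.64, and within lane 4, 0 were higher and 6 lower. Th, the rate-limiting enzyme of dopamine synthesis, had 6.65 ± 2.95 CPM (SD, n = 6) against 10.4 ± 3.51 CPM (SD, n = 11), and its log2 fold change was -0.64 ± 0.30 (SE, edgeR adjusted p = 0.0916). En1, a transcription factor gene of midbrain and hindbrain, changed by -3.86 ± 0.54 (edgeR adjusted p = 1.31e-05), and Dbh, which turns dopamine into noradrenaline, by -3.68 ± 0.54 (edgeR adjusted p = 2.19e-05). The vesicular transporter gene Slc18a2 changed by -1.55 ± 0.42 (edgeR adjusted p = 0.00489). Slc6a3 changed by 2.87 ± 0.86 (edgeR adjusted p = 0.00984), but 563 of its 713 transgene counts came from transgene 1, and within lane 4 the value was 3.14 ± 1.52 (edgeR adjusted p = 0.158).

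Of 18 genes that couple these receptors to their effectors, 7 were higher and 2 lower. So 9 of 18 were called, close to the background of 47.4% in either direction. Over all features, 23% were called higher and 24.4% lower. The median of the 18 genes was 0.20, which became 0.09 with libraries scaled by size alone. Within lane 4, 6 of the 18 were higher and 0 lower, against 13.6% of features higher and 12% lower. With size scaling alone 5 were higher and 1 lower there. Among those called over all libraries, Rgs4, which shortens inhibitory G protein signals, changed by 2.06 ± 0.23 (SE; edgeR adjusted p = 1.06e-06). Caly, a gene of vesicle trafficking, changed by 1.43 ± 0.15 (edgeR adjusted p = 8.53e-07). Kcnj6, a potassium channel gene opened by inhibitory receptors, changed by 0.84 ± 0.18 (edgeR adjusted p = 0.000986). Of 13 other receptor genes of striatal neurons, 6 were higher and 0 lower (2 lower with libraries scaled by size alone), with a median of 0.55. The share called was again close to the background in either direction, though all 6 calls over all libraries were higher. The serotonin receptor genes Htr6 and Htr4 changed by 1.86 ± 0.18 and 1.53 ± 0.27 (edgeR adjusted p = 4.2e-07 and 0.000168), and the delta opioid receptor gene Oprd1 by 1.43 ± 0.23 (edgeR adjusted p = 5.39e-05). Within lane 4, 3 of the 13 were higher and 1 lower, against 13.6% of features higher and 12% lower. The lower one was the adenosine receptor gene Adora2b, at -0.65 ± 0.21 (edgeR adjusted p = 0.0418). Htr4 was not called there, at 1.09 ± 0.39 (edgeR adjusted p = 0.0643), whereas Htr6 and Oprd1 were. Gpr12, an orphan receptor gene related to Gpr6, changed by 1.34 ± 0.20 (edgeR adjusted p = 2.87e-05). The adenosine receptor gene Adora1, which couples to inhibitory G proteins, had a log2 fold change of -0.0012 ± 0.11 (edgeR adjusted p = 0.994). Tac2, which encodes neurokinin B, was the only other tachykinin gene tested and changed by 1.85 ± 0.45 (edgeR adjusted p = 0.00237), with 1.01 ± 0.45 within lane 4 (edgeR adjusted p = 0.125).

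The genes whose levels moved most like each of the 8 were found from deviations of log2 CPM from the group means over 17 libraries, which share lanes and regional makeup, among 13562 or 13563 genes. Nearest to Adora2a were Syndig1l (Pearson r = 0.86), Rarb (0.82) and Adra2c (0.79), and nearest to Gpr6 were Ephx2 (0.89), 4930539E08Rik (0.89) and Tmem158 (0.88). For Tac1 they were Pcp4l1 (0.88), Tpbgl (0.87) and Gpr149 (0.87), for Drd1 Phlda1 (0.83), Kcnj2 (0.82) and Fn1 (0.82), and for Drd2 Gm2990 (0.89), Tekt5 (0.89) and Kazn (0.89). Drd3 came nearest to Erbb2 (0.74) and Lgr5 (0.72), Drd4 to Maml3 (0.90), Prex1 (0.88) and Strip2 (0.86), and Drd5 to Coq3 (0.83), Ankrd42 (0.83) and Samd5 (0.82). These values are a description, picked as the highest of all genes searched. Without the 2 libraries farthest from the median of each gene, r for Drd3 fell to 0.41 (Erbb2) and 0.39 (Lgr5), and those likenesses rest on transgene 2 and 3. Likewise r of Drd4 with Prex1 was 0.60 without transgene 6 and 1 (Spearman's rho 0.44 over all libraries), r with Maml3 0.89 and r with Strip2 0.79. For Adora2a and Rarb it was 0.50 without transgene 2 and 1. Leaving out controls 3 and 7, r of Drd2 was 0.65 with Gm2990, 0.62 with Tekt5 and 0.77 with Kazn. For Drd1 and Fn1 it was 0.67 without control 10 and transgene 2. With controls 4 and 7 left out, r of Drd5 was 0.74 with Coq3 and 0.69 with Ankrd42 and with Samd5. No gene was among the nearest of more than 1 of the 8, and Rarb was the only one of them on the lists of projection neuron genes.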

How the data were processed

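RNA-seq of mouse brain gave 17 libraries. The authors deposited raw read counts per transcript, with 68517 rows per library; reads were placed on mm10, per the submitters' processing notes. The sources used here do not give the aligner, counter, annotation or strand setting. In the deposited counts, 40.2% to 43.4% of reads fell on several features and 5.29% to 11.1% on none; both stand in closing rows that were left out. Rows were matched to GENCODE M21 (64380 of 64505 Ensembl rows) and summed to 41015 genes, with the other rows kept as features of their own. No libraries of a group agreed within sampling noise.

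The main test was the quasi-likelihood F test of edgeR 4.0.16 in R 4.3.3 (TMM, default expression filter with a minimum count of 10) and Benjamini-Hochberg adjustment over all features tested, 19136 over all libraries and 19261 in lane 4, with a threshold of 0.05. The F statistic gave the SE. CPM values are TMM-scaled. Ratios of counts within a library (0.5 added) were compared by exact two-sided permutation of libraries. Alternatives were RLE and library-size scaling, no filter, DESeq2 1.42.0, limma 3.58.1 (voom), the single row of highest count, lane as a factor, a block of title numbers, 2 added to counts, and libraries left out. Counting error at 17067407 to 22642441 assigned counts per library limits precision where counts are few. Spread between libraries of a group limits it as well.

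The genes and lists were chosen with earlier results of these data known. Named genes of the lists are up to 4 called genes per list with the largest absolute log2 fold change and a mean log2 CPM of at least 0. Ptprm, Th, Adora1 and Adora2b were named after their values were seen. Nearest genes are the 3 with the highest Pearson r and a mean log2 CPM of at least 1. Some genes that these rules name are not reported here. Promoter windows came from RefSeq (GRCm38.p6), which lists none for Adora2a.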

Additional observations from a re-analysis of the deposited data

Results flagged for a closer look

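The Drd4 level of transgene 6 was 9.58 CPM, while the other 5 transgene libraries lay between 0.160 and 1.27 CPM, so its gap to the nearest library took up most of the group's range and passed Dixon's 95% critical value. Of 17 values tested in the transgene group this was the only one to do so, and chance marks about 1 group in 20. The value comes from 162 counts in that library, against 3 to 26 counts in the other 5.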

How the results depend on the processing

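Drd1, Drd2, Adora2a, Gpr6 and Tac1 kept their direction and their call over all libraries under every alternative run, 27 for each gene, and Drd1, Drd2, Adora2a and Gpr6 did so within lane 4 under all 15. Of the 8 genes, the number called ranged from 6 to 7 over all libraries and from 4 to 6 within lane 4. The count of features called over all libraries fell from 9078 to 5887 with flow cell and lane as a factor, a fit in which only the 3 lane 4 controls are compared with the transgene libraries; leaving out 1 library at a time gave 8177 to 9550, and 3712 to 4863 within lane 4. Drd4, never past the threshold, was at -0.32 with limma-voom and -0.72 with the title-number replicate block, and at -0.69 over all libraries and -0.29 within lane 4 without transgene 6, the library that holds most of its transgene counts; with 1 library left out it reached 0.92 and 1.32; DESeq2 gave it no adjusted p. The title-number replicate block called 7503 features and 7 of the 8 genes; the correlations of same-numbered libraries were -0.05, 0.15, 0.32, 0.06 and 0.16, not all above 0.1, so the labels and these values do not establish a pairing. Among ratios, Drd1 to Adora2a was at -0.52 with 2 added to counts and at -0.40 within lane 4, and 0.44 to 0.96 with 1 library left out; Drd2 to Ppp1r1b was at -0.67 within lane 4; Drd1 to Ppp1r1b was 1.54 within lane 4, past the threshold no longer; and Gpr6 to Adora2a spanned 1.03 to 1.69 with 1 library left out, past the threshold without control 8. For the Drd1 ratios, 5 controls have no Drd1 count, and for the Gpr6 ratio 1 control has no Gpr6 count, so the number added sets their values; for Drd2 to Ppp1r1b the cause was not tested. Depth limits Drd1, Drd3 and Gpr6 in controls, with 25, 107 and 197 counts in all.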
